A study of Mus musculus with 8 samples.

Results

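The genes described here build and report the antigen receptor of developing lymphocytes. They are 10 mouse genes chosen by name: Dntt, Rag1, Rag2, Vpreb1, Vpreb3, Igll1, Cd79a, Cd79b, Blnk and Ighm. The choice was made with earlier results of these data known. They are 10 of the 18194 genes that a probe set of the array named alone. Their signal was read on 8 Affymetrix arrays of LSK cells, the bone marrow cells without lineage antigens that carry Sca-1 and Kit. Stem cells and the earliest progenitors of the blood lie in this fraction. The control group was 4 arrays of normal (WT) cells. The other 4 were of cells in which Msi2 had been deleted conditionally (KO), a gene whose product, Musashi-2, binds RNA. The labels do not say whether the arrays of a group came from separate animals, so p-values measure the spread between these arrays. The promoter of the deleting recombinase, the time since deletion and the age and strain of the mice are unknown here. All values are log2 signals per probe set.

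Lymphocytes assemble their receptor genes from V, D and J segments. The RAG1 and RAG2 proteins form the recombinase that cuts the DNA, repair by end joining closes it, and terminal deoxynucleotidyl transferase, the product of Dntt, adds bases to the joints that no template encodes. In the B lineage the finished mu heavy chain, encoded by Ighm, pairs with a surrogate light chain made of VpreB and lambda5 (Igll1), sits in the membrane with the signalling chains Cd79a and Cd79b, and signals through the adaptor Blnk. Some of these genes are switched on early, in multipotent progenitors primed towards the lymphoid fate, before the B lineage is fixed.

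Of the 10 genes, 5 had a measured probe set and 5 were listed at 0 on all 8 arrays. Measured were Dntt (3 probe sets), Rag2 (1), Vpreb1 (1), Cd79b (1) and Ighm (3 of 11). Listed at 0 were Rag1 (1 probe set), Vpreb3 (1), Igll1 (2), Cd79a (1) and Blnk (1). In all, 14 of the 23 probe sets named for a member alone were at 0. A further 5 probe sets that share a member with other genes, 1 of Vpreb1 with Vpreb2 and 4 of Ighm, were at 0 as well. The step that set values to 0 is not stated and also struck 45.8% of all probe sets, so a gene listed at 0 has no measured level here. Besides Dntt and Ighm, the measured genes are single parts of complexes: 1 chain of the recombinase, 1 part of the surrogate light chain and 1 of the pair of signalling chains, each with its partner listed at 0.

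The members lie in part side by side in the genome. In the gene order of RefSeq (GRCm38.p6) Rag1 and Rag2 are direct neighbours on chromosome 2, with 0 genes between them, and so are Vpreb1 and Igll1 on chromosome 16. Dntt and Blnk are on chromosome 19 with 2 genes between them, 0 of them protein-coding. Each of these 3 pairs holds 1 measured gene (Rag2, Vpreb1, Dntt) and 1 listed at 0 (Rag1, Igll1, Blnk). The promoters of the last 2 pairs are printed so that a measured gene can be read beside the neighbour at 0. They come from RefSeq (GRCm38.p6), run 5′ to 3′ on the strand of the gene, and hold the start of the transcript near their end. The windows are chr19:41029025-41029324 (plus strand) for Dntt, chr19:40994172-40994471 (minus) for Blnk, chr16:16869206-16869505 (minus) for Vpreb1 and chr16:16863936-16864235 (minus) for Igll1. Capitals mark matches, on either strand, to 4 motifs: the E-box CAGGTG read by E2A proteins, CCCNNGGG for EBF, TGGGAA for Ikaros and the octamer ATGCAAAT.
Dntt: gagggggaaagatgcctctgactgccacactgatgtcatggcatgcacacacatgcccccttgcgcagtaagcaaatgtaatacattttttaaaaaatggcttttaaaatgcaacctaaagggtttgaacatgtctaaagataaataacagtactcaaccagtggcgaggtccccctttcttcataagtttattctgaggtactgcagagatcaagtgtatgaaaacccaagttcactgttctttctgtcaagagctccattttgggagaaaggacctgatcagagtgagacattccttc
Blnk: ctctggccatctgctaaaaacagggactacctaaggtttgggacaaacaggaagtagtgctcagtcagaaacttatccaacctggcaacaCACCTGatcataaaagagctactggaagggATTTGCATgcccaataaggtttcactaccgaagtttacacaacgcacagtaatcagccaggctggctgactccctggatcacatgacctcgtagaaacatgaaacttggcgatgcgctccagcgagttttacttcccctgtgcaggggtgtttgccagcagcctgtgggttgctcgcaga
Vpreb1: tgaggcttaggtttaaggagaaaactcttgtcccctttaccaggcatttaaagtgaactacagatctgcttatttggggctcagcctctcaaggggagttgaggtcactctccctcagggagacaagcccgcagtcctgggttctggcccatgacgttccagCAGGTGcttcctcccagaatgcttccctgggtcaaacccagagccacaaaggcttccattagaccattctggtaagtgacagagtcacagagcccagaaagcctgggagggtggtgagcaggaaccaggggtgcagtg
Igll1: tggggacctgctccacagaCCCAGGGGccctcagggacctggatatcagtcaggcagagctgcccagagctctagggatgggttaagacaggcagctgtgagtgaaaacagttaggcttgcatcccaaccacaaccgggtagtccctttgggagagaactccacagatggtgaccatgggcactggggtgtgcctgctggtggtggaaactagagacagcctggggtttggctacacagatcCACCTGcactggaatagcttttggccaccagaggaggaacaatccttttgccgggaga
The E-box CAGGTG was found 1 time each in the windows of Blnk, Vpreb1 and Igll1, the EBF motif 1 time in that of Igll1 and the octamer 1 time in that of Blnk. The Dntt window held 0 matches to these 4 motifs. Of the 32851 promoters of the same length in the table, 20.2% held the E-box, 13.7% the EBF motif, 25.6% the Ikaros motif and 1.74% the octamer. No 2 of the capitalised matches overlap. A match describes the letters only. 8 of the 10 members had a promoter in the table. Rag1 held 1 E-box and 1 Ikaros match, Cd79a 1 E-box, Vpreb3 1 octamer and Rag2 0 matches.

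The mean of 4 bright Msi2 probe sets, as a percentage of that in controls, was 72.6%, 63.4%, 15.1% and 40.5% on Msi2 KO 1 to 4 and between 91.1% and 111% on the controls. On each of these 4 probe sets every KO array lay below every control, and whether they lie in the deleted part of the gene is not stated. Median log2 signals lay between 7.03 and 7.07, and correlations between arrays between 0.942 and 0.983. Msi2 KO 3 stood apart from the rest: its score was 50.5 where the other 7 ran from -26.7 to 11.0, on a first component with 32.4% of the variance. Low Xist marked 1 control (control 1) and 2 KO arrays (Msi2 KO 1 and 2), at 4.79 to 5.55. The others lay between 11.92 and 12.51. The Y-linked gene Eif2s3y read 8.05 to 8.14 on the arrays with low Xist and 3.36 to 3.62 on the others. Both groups thus hold male and female material, so each came from more than 1 animal. Whether every array is a separate animal is not stated. Kit, a gene of the LSK gate, lay between 8.39 and 9.19, and Cd34, which is not part of the gate, between 9.68 and 10.63. Ly6a, the gene of Sca-1, had no probe set of its own name in the table used here.

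Dntt was the member that separated the groups. On its probe set 1420166_at the controls read 10.84, 10.91, 10.37 and 10.94 and Msi2 KO 1 to 4 read 9.66, 9.69, 7.13 and 8.56. Every KO array lay below every control, Msi2 KO 1 and 2 by the smallest distance and Msi2 KO 3 by the largest. The probe set 1449757_x_at gave 11.16, 11.10, 10.56 and 11.03 in controls and 9.97, 10.10, 7.55 and 8.96 in KO, in the same arrangement. The third probe set, 1450545_a_at, gave 10.32, 10.38, 9.40 and 10.04 in controls and 8.55, 8.16, 6.09 and 7.75 in KO. All 3 probe sets split the arrays in the same way. They are named for the same gene and are no replicates of each other. Which Dntt transcripts each of them reads is not stated.

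The difference of KO minus control was -2.01 ± 0.51 (SE) for 1420166_at, -1.82 ± 0.50 for 1449757_x_at and -2.40 ± 0.49 for 1450545_a_at, with 4 arrays per group. These equal signals 4.02-fold, 3.53-fold and 5.26-fold lower in KO. The 95% intervals ran from -3.16 to -0.86, from -2.95 to -0.69 and from -3.49 to -1.30. In the exact permutation test over the 70 assignments of the arrays, each probe set gave a two-sided p of 0.0286, the smallest that 4 arrays against 4 can give. On 1420166_at and 1449757_x_at the exact permutation p was 0.0857 without control 1, 2 or 4 and 0.0571 without control 3, and it stayed at 0.0286 on 1450545_a_at without any 1 array. After Benjamini-Hochberg adjustment over all 24404 probe sets limma gave adjusted p-values of 0.354, 0.372 and 0.298, so none of the 3 passed the threshold of 0.05. No probe set of the array passed it (0% of 24404, with 9.72% at an unadjusted p under 0.05). In bulk RNA, fewer cells that carry Dntt and less Dntt RNA per cell cannot be told apart.

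All KO arrays lay below all controls for 2.96% of all probe sets and 3.48% of the 10720 genes tested. Among the member genes this was so for Dntt alone of the 5 measured, on 3 of its 3 probe sets. Without Msi2 KO 3 the differences of Dntt were -1.47, -1.29 and -1.88, and the brightest of its probe sets, 1449757_x_at, which stands for the gene, had an adjusted p of 0.303 in limma. Within the arrays with high Xist (3 controls, 2 KO) the difference on 1449757_x_at was -2.65, and within those with low Xist (1 control, 2 KO) it was -1.12. As every KO array lay below every control, the direction could only be the same on both sides of this split.

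**Figure D1:**
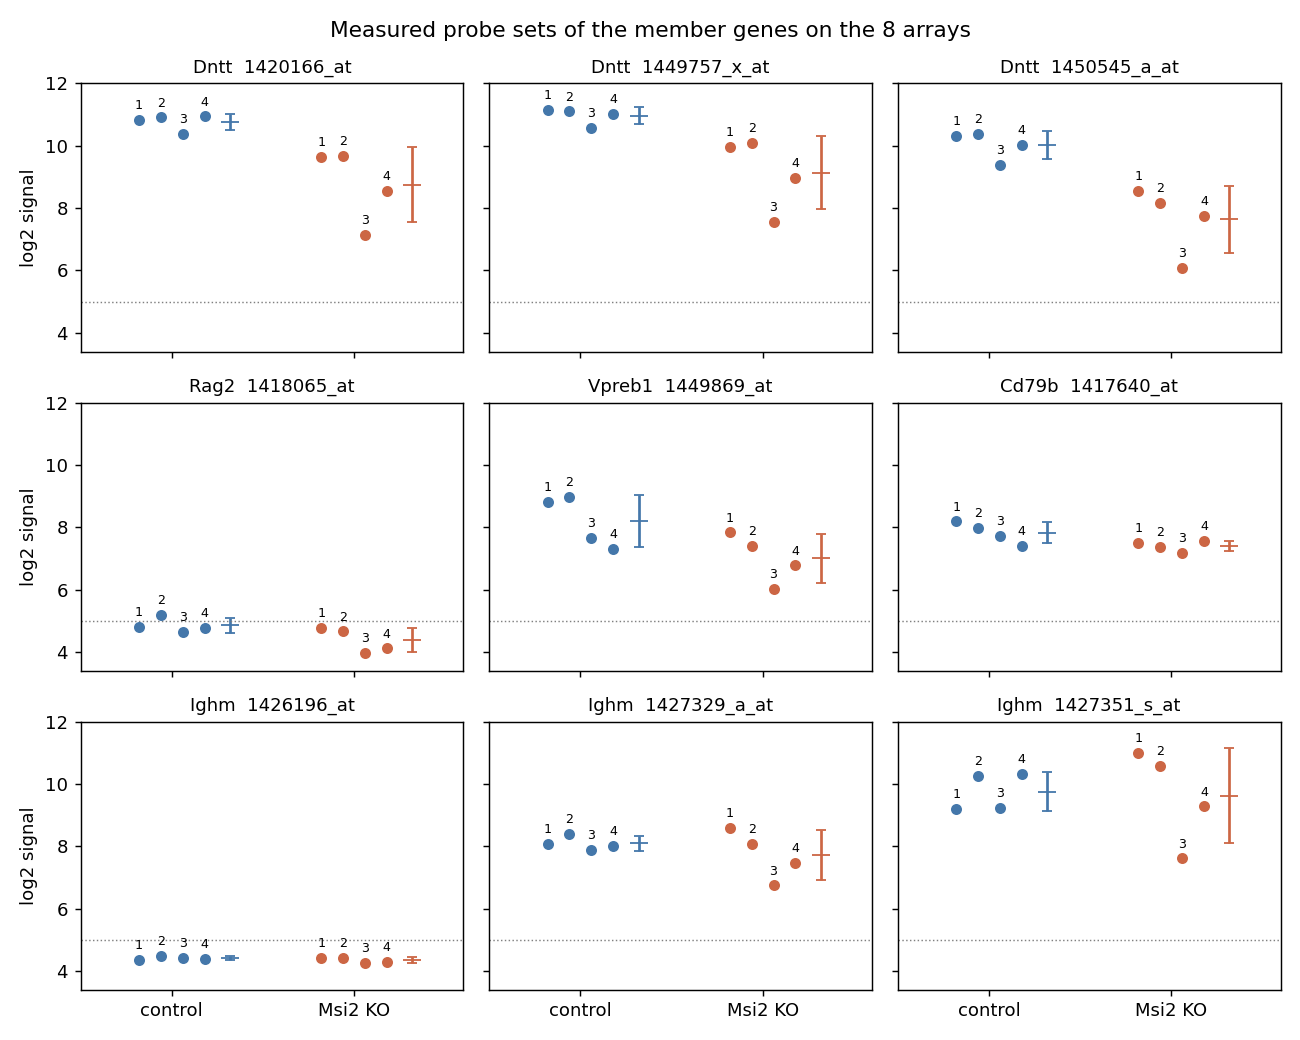
Log2 signal of the 9 measured probe sets of the member genes, 1 panel each, on the 4 control (blue) and 4 Msi2 KO (orange) arrays. Numbers at the points are the replicate numbers, bars are the mean with SD, and the dotted line at 5 is the level under which a group mean is called near background. Dntt separates the groups on all 3 probe sets, and Msi2 KO 3 is the lowest array in every panel.

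Rag2, the recombinase partner of RAG1, lay near background, defined here as a group mean below 5. Its probe set 1418065_at read 4.81, 5.20, 4.65 and 4.77 in controls and 4.77, 4.66, 3.98 and 4.11 in KO. Msi2 KO 3 and Msi2 KO 4 lay below all controls, and Msi2 KO 1 and 2 lay within their range. The means were 4.86 ± 0.24 and 4.38 ± 0.39 (SD, n = 4 each), a difference of -0.48 with a 95% interval of -0.96 to 0.01, and the exact permutation p was 0.114 (two-sided). No fold is given so close to background. Rag1 was listed at 0, so the recombinase has no measured chain well above background on these arrays.

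Vpreb1 encodes the variable-like part of the surrogate light chain. Its controls read 8.82, 8.97, 7.67 and 7.31 and its KO arrays 7.83, 7.39, 6.02 and 6.77 on probe set 1449869_at. The groups overlapped: controls 1 and 2 were high, control 3 lay between Msi2 KO 1 and 2, control 4 below both, and Msi2 KO 3 and 4 lay below all controls. Controls averaged 8.19 ± 0.83 and KO arrays 7.01 ± 0.79 (SD, n = 4 each), a difference of -1.19 with a 95% interval of -2.25 to -0.12, or 2.28-fold. The exact permutation p was 0.143 (two-sided) and the adjusted p of limma over all probe sets 0.477. Without Msi2 KO 3 the difference was -0.86. The controls alone spanned 1.66 log2 units (7.31 to 8.97), more than the difference between the groups. Vpreb1 has the near-identical copy Vpreb2, and although the probe set is named for Vpreb1 alone, RNA of both cannot be fully told apart. The other part of the surrogate light chain, Igll1, and its relative Vpreb3 were listed at 0.

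Cd79b, the Ig-beta signalling chain, read 8.19, 7.99, 7.71 and 7.41 in controls and 7.50, 7.37, 7.18 and 7.55 in KO on probe set 1417640_at. Control 4 lay among the KO arrays, while the other 3 controls lay above all of them. The difference was -0.42 with a 95% interval of -0.85 to -0.002 in limma (adjusted p 0.512) and an exact permutation p of 0.0857 (two-sided), which was 0.0286 without control 4. The spread within the KO group was small for this gene (SD 0.16, against 0.34 in controls), and Msi2 KO 3 had a deviation of -0.64 from the control mean. Its partner Cd79a, the Ig-alpha chain, and the adaptor Blnk were listed at 0.

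Ighm gave different pictures on its 3 measured probe sets. On the brightest, 1427351_s_at, the controls read 9.20, 10.25, 9.22 and 10.32 and the KO arrays 11.00, 10.57, 7.61 and 9.28. Msi2 KO 1 and 2 lay above all controls, Msi2 KO 3 below all of them and Msi2 KO 4 within their range. The difference of -0.13 had a 95% interval of -1.65 to 1.38 and an exact permutation p of 0.971 (two-sided). The SD was 1.52 in KO and 0.62 in controls. Without Msi2 KO 3 the difference turned to 0.54 (adjusted p 0.719 in limma). In the arrays with high Xist it was -1.49 and in those with low Xist 1.59, so that the direction depends on which arrays are compared.

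The probe set 1427329_a_at of Ighm read 8.06, 8.40, 7.88 and 8.01 in controls and 8.60, 8.09, 6.74 and 7.46 in KO. Here Msi2 KO 1 alone lay above all controls, and Msi2 KO 3 and 4 lay below them, with a difference of -0.37 (95% interval -1.16 to 0.43, exact permutation p 0.486, two-sided). The probe set 1426196_at lay near background on all arrays (4.25 to 4.49), with a difference of -0.06. Unrearranged alleles also give transcripts of the mu constant region in progenitor cells, and which transcripts these probe sets read is not stated. The intervals of all 3 probe sets span 0 and, for 1427351_s_at, changes of over 1 log2 unit in either direction.

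**Figure D2:**
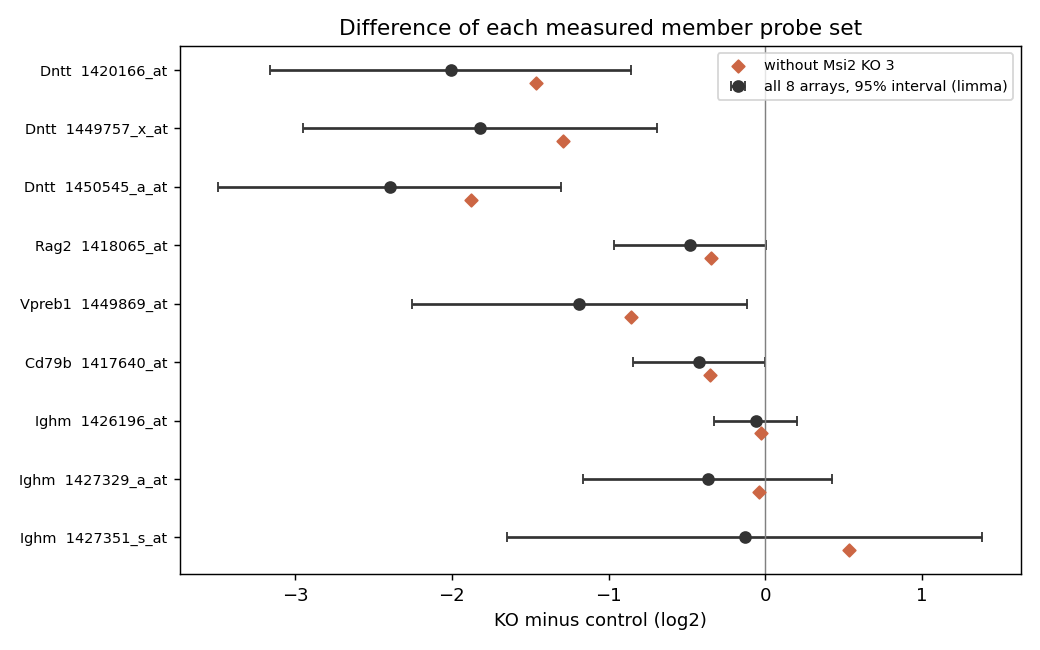
KO minus control (log2) of each measured member probe set. Points are the difference over all 8 arrays with the 95% interval of limma, and diamonds the difference without Msi2 KO 3. The 3 probe sets of Dntt lie farthest from 0, and 1427351_s_at of Ighm changes sign without that array.

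Over the 5 measured genes, each by its brightest probe set, the median difference was -0.48, beside 0.002 over all 10720 genes. This median is the value of a single gene, Rag2, which lay near background and whose interval spans 0. All 5 differences were below 0, as were 49.6% of all genes. At an unadjusted p under 0.05 in limma Dntt, Vpreb1 and Cd79b were lower, where the background over all genes was 5.66% lower. The exact permutation p was 0.143 for Vpreb1 and 0.0857 for Cd79b (two-sided). The members were chosen with earlier results of these data known, so their share cannot be weighed against that background. After adjustment 0 of 5 passed limma (0% of all genes). These counts cover the measured genes and not the 5 listed at 0, and single arrays weigh on them. At an unadjusted p under 0.05 the 3 fell to 1, Dntt, without control 1, control 2, Msi2 KO 3 or Msi2 KO 4. The median of the 5 was -0.35 without Msi2 KO 3, then the value of Cd79b.

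The KO arrays also differed from each other, several members in the order of the remaining Msi2 signal given above. The mean of the 3 Dntt probe sets was 43.6%, 41.4%, 7.88% and 22.3% of that in controls on Msi2 KO 1 to 4. The order from highest to lowest was Msi2 KO 1, 2, 4 and 3 for the means of both genes, with Msi2 KO 2 slightly above Msi2 KO 1 on 2 of the 3 Dntt probe sets. Of the 9 measured member probe sets 6 had this order, as had 7.03% of all probe sets. They were 1450545_a_at of Dntt, those of Rag2 and Vpreb1 and all 3 of Ighm, so Ighm counts 3 times. Rag2 and 1426196_at of Ighm lay near background. The erythroid marker sums, at 2044, 3450, 8329 and 4157 on Msi2 KO 1 to 4, and the scores on the first component follow it too, from lowest to highest. In controls Dntt lay between 71.8% and 116%. As log2 deviations from the control mean, Vpreb1 lay at -0.36, -0.80, -2.17 and -1.42 on Msi2 KO 1 to 4, again in the same order, and Rag2 at -0.09, -0.20, -0.88 and -0.75. Ighm on 1427351_s_at kept the order as well, from 1.25 above its control mean on Msi2 KO 1 and 0.82 on Msi2 KO 2 to deviations of -0.47 on Msi2 KO 4 and -2.14 on Msi2 KO 3. Cd79b did not: Msi2 KO 4 was its highest KO array (-0.27) and the others lay at -0.33, -0.45 and -0.64. With 4 KO arrays no correlation is given, and the arrays differ also in Xist, which is low on Msi2 KO 1 and 2.

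Msi2 KO 3 was the lowest of the 8 arrays on 9 of the 9 measured member probe sets (5 genes), a place it took on 18.7% of all probe sets. It was also the KO array with the highest sum of erythroid markers. Of the 8 erythroid markers 5 were measured and Hba-a1 was listed at 0. The summed linear signal of the measured ones lay between 828 and 2849 in controls and between 2044 and 8329 in KO, highest on Msi2 KO 3. Gata1, Klf1, Epor and Car1 were each highest on that array, and Car1, the brightest (12.38), weighs most in the sum. Slc4a1, near background, was there at its lowest among the KO arrays (3.82). The 6 measured genes of a list of LSK markers (Kit, Cd34, Flt3, Slamf1, Cd48 and Procr) summed to 4433 to 4762 in controls. The sum was 2433 on Msi2 KO 3 and 4022 to 4994 on the other KO arrays. Of these genes Kit alone belongs to the gate, and it read 9.02 on Msi2 KO 3, within the controls (8.39 to 9.16). The other genes of the list lay below all controls on that array. The part of the erythroid or LSK markers in the values of the member genes was not tested.

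**Figure D3:**
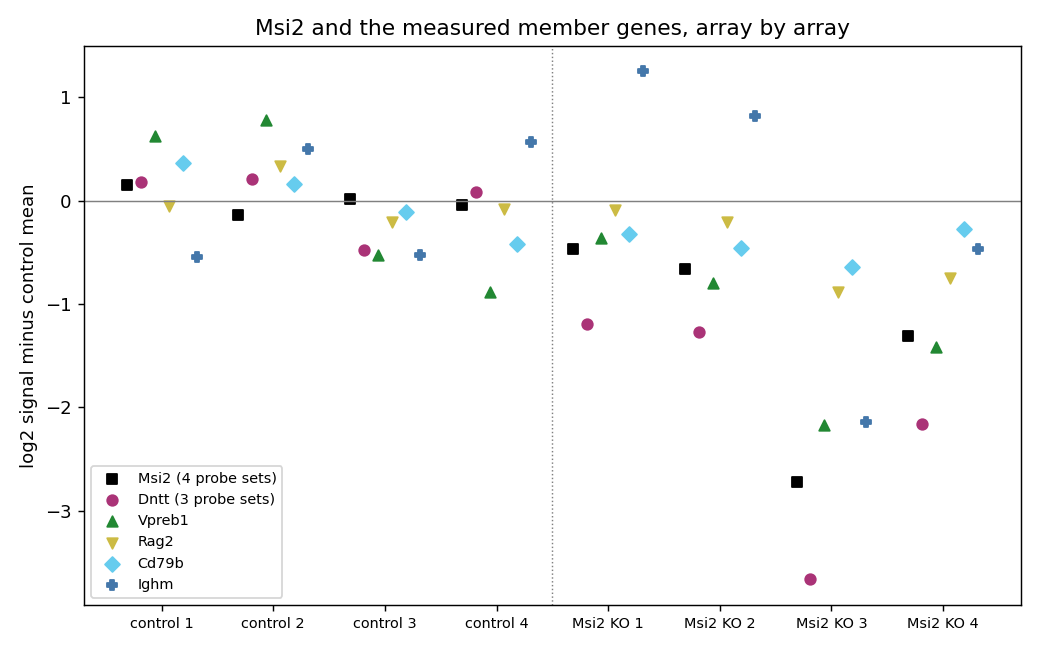
Log2 signal minus the control mean on each of the 8 arrays for Msi2 (mean of 4 probe sets), Dntt (mean of 3) and the probe sets that stand for Vpreb1, Rag2, Cd79b and Ighm. Msi2, Dntt, Vpreb1, Rag2 and Ighm are highest on Msi2 KO 1, then 2, 4 and 3 among the KO arrays. Cd79b is highest on Msi2 KO 4 among them. Ighm lies above its control mean on Msi2 KO 1 and 2 and below it on Msi2 KO 3 and 4.

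Few markers of committed lymphocytes were measured. Of the B lineage markers, Pax5, Ebf1, Ms4a1, Cd22, Blk and Ly6d were listed at 0, and Igkc and Ighd had no probe set of their own name in the table used here. The 3 measured were Cr2 and Fcer2a, both near background (3.31 to 4.65), and Cd74, the invariant chain of MHC class II, which other antigen-presenting cells also carry. Cd74 lay between 6.92 and 7.68 in controls and read 8.82, 8.87, 5.83 and 8.40 in KO, with Msi2 KO 3 lowest as for the members. The summed signal of the 3 ran from 161 to 238 in controls and from 84.4 to 501 in KO. Of the 10 T lineage markers 0 were measured and 7 were listed at 0, among them Ptcra, Cd3e and Cd4. Of the 6 plasma cell markers 4 were measured (sums of 468 to 593 in controls, 453 to 752 in KO) and Tnfrsf17 and Derl3 were at 0. Of the 6 plasmacytoid dendritic cell markers 3 were measured (1314 to 1603 and 967 to 1491), with Siglech, Ly6d and Spib at 0. Most of this sum is Tcf4, which differed by -0.22, while Bst2 (0.43) and Ccr9 (0.15, near background) were higher in KO on average.

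The partner genes of the pathway had median differences near 0. Of the 15 partners in V(D)J recombination and end joining, 12 were measured, 3 higher and 9 lower in KO, with a median difference of -0.09 and 0 past the adjusted threshold. At an unadjusted p under 0.05 stood 1 in each direction, where 5.66% of all genes were lower and 5.74% higher. Atm, the kinase that senses DNA breaks, averaged 9.13 in controls and 8.60 in KO (-0.54 ± 0.19, SE, adjusted p 0.366 in limma). The difference was -0.18 when all Atm probe sets were averaged (unadjusted p 0.259 in limma). Lig4, the ligase of end joining, lay near background in controls (3.75 to 4.08) and read 6.32 on Msi2 KO 1 and 3.96 to 4.72 on the other KO arrays, a difference of 1.02 (adjusted p 0.421 in limma) that was 0.55 without Msi2 KO 1. The acetyltransferase Kat7 differed by 0.25 (adjusted p 0.704 in limma). Hmgb2, the DNA-bending cofactor of the recombinase, differed by -0.10, Xrcc5 by -0.13 and the kinase Prkdc by -0.01. Polm, a polymerase related to the enzyme of Dntt, was listed at 0.

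Of the 17 early B cell transcription factors 10 were measured, 4 higher and 6 lower, with a median of -0.03 and 0 past the adjusted threshold. Ebf1 and Pax5, which fix the B lineage, were listed at 0 with Ikzf3, Spib, Lef1, Irf4 and Id3. Sox4 read 10.04 to 10.35 in controls and 9.86, 9.79, 9.09 and 9.91 in KO, so all KO arrays lay below all controls (-0.53 ± 0.20, SE, adjusted p 0.392 in limma). Without Msi2 KO 3 the difference of Sox4 was -0.34, and with its probe sets averaged it was -0.42 (unadjusted p 0.125 in limma). Foxo1, an activator of the Rag genes, differed by 0.41 (adjusted p 0.475), and Id2, an inhibitor of E proteins, by 0.38 (adjusted p 0.447, both in limma), the latter near background. The E protein genes Tcf3, Tcf4 and Tcf12 differed by 0.22, -0.22 and 0.10.

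Of the 19 partners in pre-B receptor signalling 12 were measured, 5 higher and 7 lower, with a median of -0.02 and 0 at an unadjusted p under 0.05. The B cell receptor regulator Cd72 had the smallest p, at -0.53 (adjusted p 0.515 in limma), and read 8.51, 7.94, 7.89 and 8.10 in controls and 8.07, 8.01, 6.80 and 7.44 in KO, with Msi2 KO 3 and 4 below all controls. Without Msi2 KO 3 its difference was -0.27. Pik3ap1, an adaptor to PI3 kinase, differed by -0.35 (-0.012 when its probe sets were averaged) and the phosphatase Ptpn6 by -0.16. Syk, the kinase that docks on Cd79a and Cd79b, differed by 0.05. Blk, Bank1, Dok3 and Cd22 were listed at 0.

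In the IL-7 receptor arm 6 of 9 genes were measured, 4 higher and 2 lower (median 0.08), and Il7r itself was listed at 0. Stat5a, a transcription factor downstream of the receptor, lay between 9.99 and 10.18 in controls and read 10.42, 10.59, 10.39 and 10.22 in KO, all above the controls (0.33 ± 0.13, SE, adjusted p 0.397 in limma). All KO arrays lay above all controls for 3.63% of the genes tested. Crlf2 differed by 0.26 (0.025 without Msi2 KO 4, 0.54 without Msi2 KO 3) and Stat5b by -0.19. Of the 12 genes of the pre-T receptor and its signalling 4 were measured, 1 higher and 3 lower (median -0.11), with Cd247 at -0.25, Lat at -0.15 and Bcl11b at -0.07, the last near background. Ptcra, Cd3d, Cd3e, Cd3g, Zap70 and Gata3 were at 0.

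**Figure D4:**
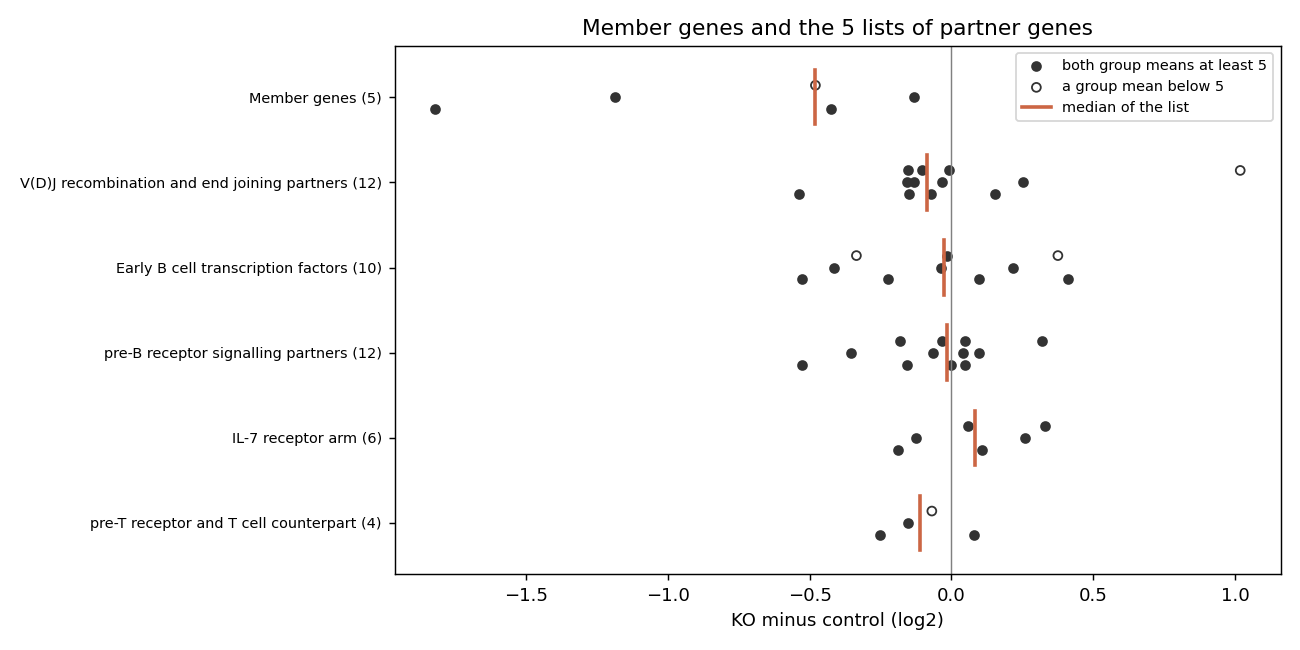
KO minus control (log2) of the 5 measured member genes and of the measured genes of 5 partner lists, 1 point per gene, open where a group mean lies below 5, with the median of each list as a bar. The number of measured genes is given in brackets. The medians of the partner lists lie between -0.11 and 0.08, and that of the members at -0.48, the value of Rag2, which lay near background.

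The 5 genes whose values over the 8 arrays were most like those of Dntt (1449757_x_at, the member probe set of highest mean) among 9329 genes with both group means of at least 5 were Notch1, Pim1, Sesn1, Zfp90 and Gm34703. Pearson correlations with Dntt were 0.972, 0.965, 0.965, 0.963 and 0.960, and Spearman correlations 0.881, 0.905, 0.905, 0.833 and 0.857. These were picked as the highest of many, over 8 arrays that share the group difference. With the mean of each group removed the Pearson values were 0.944, 0.941, 0.932, 0.919 and 0.958, and without Msi2 KO 3 they were 0.919, 0.899, 0.946, 0.938 and 0.884. Notch1, the receptor that directs progenitors to the T lineage, averaged 9.00 ± 0.07 on control arrays and 8.25 ± 0.58 on KO arrays (SD, n = 4 each), and Pim1, a kinase induced by cytokines, 10.80 ± 0.13 and 10.33 ± 0.39. Sesn1, a stress-induced regulator of growth signalling, averaged 9.47 ± 0.06 and 8.82 ± 0.29. For these 3 genes all KO arrays lay below all controls, as for Dntt and for 3.48% of all genes tested. They were picked for their likeness to Dntt, so this separation follows in part from the choice. Zfp90 (-0.50) and Gm34703 (-0.61) overlapped between the groups. The differences without Msi2 KO 3 were -0.50 for Notch1, -0.29 for Pim1 and -0.35 for Gm34703. Notch1 differed by -0.75 on its brightest probe set and by -0.51 when its probe sets were averaged (unadjusted p 0.137 in limma). Averaged in the same way, Pim1 differed by -0.57 and Sesn1 by -0.54.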

How the data were processed

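Total RNA of mouse LSK cells, 4 control and 4 Msi2 KO samples, was biotin-labelled and hybridised to Affymetrix mouse arrays, per the labels. The authors deposited log2 signals, 1 per probe set and array, which they had normalized. The submitters' processing notes name RMA, without a version. Of 45101 probe sets 20664 were exactly 0 on all arrays, by a step that is not stated, and were left out. Probe sets were named by the platform annotation, with symbols updated by gene ID through RefSeq (GRCm38.p6): 34958 had 1 gene name, 932 several and 9160 were not listed. The brightest probe set named for a gene alone stood for it. limma 3.58.1 in R 4.3.3 (lmFit, eBayes, two-sided) was fitted over all 10720 genes and, separately, over all 24404 probe sets, with Benjamini-Hochberg adjustment at 0.05, and the member rows were then read out. An exact permutation test over the 70 assignments of arrays was run for each member probe set. The procedure was tested on simulated data in which both groups had the spread of the control arrays. For Dntt (1449757_x_at) the SD was 0.27 in controls and 1.18 in KO, and the simulation does not cover such a difference in spread. The number of arrays limits the precision. 1 B lineage marker is not reported here.

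The members and lists were chosen with earlier results of these data known. Named are all measured member probe sets, 3 genes of smallest p per partner list, the B lineage markers among them and the 5 genes most like Dntt. Further partner genes were named for their role, after their values were seen. Same-numbered arrays did not deviate together (correlations 0.137, -0.172, 0.0751 and -0.0207), so replicate numbers were not taken as pairs. The alternatives, with their effect given at the end, were other scalings, filters, priors, weights, the replicate block, Xist, other probe set rules and leaving out each array.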

Additional observations from a re-analysis of the deposited data

Results flagged for a closer look

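None of the member genes had an array far from the rest of its group by the gap test for groups of 4 arrays. Among the 58 groups of 4 examined, 3 had such an array, all in partner genes, and chance gives about 1 in 20. Sox4 read 9.09 on Msi2 KO 3, with the other KO arrays between 9.79 and 9.91. Foxo1 read 7.66 on control 3, with the other controls between 7.28 and 7.30. Stat5b read 7.44 on control 4, with the other controls between 8.02 and 8.09.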

How the results depend on the processing

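Dntt, Vpreb1, Rag2 and Cd79b kept their direction and stayed past no adjusted threshold in limma under every alternative that gave a value. Dntt ran from -2.65 (high-Xist arrays) to -1.29 (without Msi2 KO 3), with adjusted p from 0.138 to 0.495, Vpreb1 from -1.58 to -0.86, Rag2 from -0.83 to -0.35 and Cd79b from -0.56 to -0.30. With values below the median left out Rag2, Vpreb1 and Cd79b have no value in the fit over genes, and 679 genes and 1451 probe sets had an unadjusted p under 0.05, against 1222 and 2371 with all values. Leaving out each array moved Ighm (1427351_s_at) between -0.59 and 0.54, and the cause was not tested. It was 0.033 without control 2, 0.058 without control 4 and 0.54 without Msi2 KO 3. Likewise Lat ran from -0.27 to 0.0017 (without Msi2 KO 4) and Bcl11b from -0.16 to 0.043 (without control 2). Stat5b turned to 0.045 in the high-Xist arrays and to 0.0083 when the probe sets of each gene were averaged, which put Kat7 at -0.046. Of all genes 0 passed, but 4 passed with Xist as a covariate, and 0 to 1 when each array was left out (1 without Msi2 KO 1). Of all probe sets 0 passed, but 1 passed with repeated quantile normalization, without values below the median or with array weights, 2 with an intensity trend, and 0 to 1 when each array was left out (1 without Msi2 KO 1). No member was among these (adjusted p of at least 0.138). With the replicate block 0 genes passed, and Dntt stayed at -1.82 with an adjusted p of 0.326 (Vpreb1 also 0.326). The block changed no member's adjusted call. At an unadjusted p under 0.05 in limma it lost Cd79b (0.0616) and gained Rag2 (0.0273). Rag2 gained this call also with median centring (0.0443), an intensity trend (0.0455), array weights (0.0203) and Xist as a covariate (0.0194). The same held with averaged probe sets (0.0461), in the high-Xist arrays (0.00724) and without control 3, Msi2 KO 1 or Msi2 KO 2. Cd79b also lost this call with array weights (0.0747), an intensity trend (0.0663) and in the high-Xist arrays (0.192). It lost it as well when any 1 array other than control 4 was left out. The number of arrays and signals near background limit all of this.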
